A study of Homo sapiens with 28 samples.

Results

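The genes of a myeloma line were sorted by 3 histone marks measured in the same cells, H3K36me2, H3K27me3 and H3K27ac. The set holds 17341 protein-coding genes of at least 2 kb on chromosomes 1 to 22, out of 19817 protein-coding genes placed on these chromosomes and X. A further 496 genes of that length were left out because they lie in 1 Mb blocks where each of the study's 12 peak lists covers at least 10% of the bases. A gene was placed under H3K36me2 or H3K27me3 where peaks of that mark, joined across gaps of up to 1 kb, covered at least 25% of its body. It was called acetylated at an end where an H3K27ac peak came within 1 kb of its start or its end.

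The cells are TKO cells, a derivative of the KMS-11 plasma cell myeloma line whose genotype is labelled WHSC1(+/-), WHSC1 being an older name of the NSD2 gene. The marks were mapped by ChIPmentation, in which a transposase adds sequencing adapters to immunoprecipitated chromatin. The TKO cells were studied beside TKO cells that expressed wild type NSD2 (WT), NSD2 D1240A or NSD2 F1295A, and all 4 conditions share the TKO background. Each condition and mark had 2 replicates, which are not stated to be separate cultures. The authors called peaks on both replicates together, with no input as control, so that each mark has 1 TKO list, no replicate error can be given and no test was possible. Intervals on shares of genes are exact binomial 95% intervals, and they cover counting only.

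H3K36me2 is placed by NSD2 and related methyltransferases over gene bodies and the space between genes. H3K27me3 is placed by the EZH2 or EZH1 subunit of Polycomb repressive complex 2 and is known from silenced developmental genes. H3K27ac marks active promoters and enhancers, and since it sits on the same lysine as H3K27me3, no single histone tail can carry both. H3K36me2 on a tail is known to hinder the Polycomb enzyme, and the line from which TKO was derived is known for a translocation that raises NSD2.

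The promoters of 4 genes show the combinations described here, given as the 250 bases before the RefSeq start (GRCh38.p14, minus strand, 5′ to 3′) with each CpG, the base pair that DNA methyltransferases act on, in capitals. CREG1, for a secreted glycoprotein of the endosome and lysosome, and JCHAIN, for the chain that joins polymeric IgA and IgM, were under H3K36me2 with an acetylated end. SLAMF9, for a surface receptor of the SLAM family, and C1orf116 were under H3K27me3, with and without an acetylated end. The positions are chr1:167553763-167554012 for CREG1, chr4:70666509-70666758 for JCHAIN, chr1:159954238-159954487 for SLAMF9 and chr1:207032757-207033006 for C1orf116.
CREG1: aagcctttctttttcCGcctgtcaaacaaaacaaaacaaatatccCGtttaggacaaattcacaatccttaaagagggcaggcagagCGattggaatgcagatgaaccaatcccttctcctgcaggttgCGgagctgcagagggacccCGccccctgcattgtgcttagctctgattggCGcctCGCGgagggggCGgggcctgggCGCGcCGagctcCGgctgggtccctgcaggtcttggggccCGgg
JCHAIN: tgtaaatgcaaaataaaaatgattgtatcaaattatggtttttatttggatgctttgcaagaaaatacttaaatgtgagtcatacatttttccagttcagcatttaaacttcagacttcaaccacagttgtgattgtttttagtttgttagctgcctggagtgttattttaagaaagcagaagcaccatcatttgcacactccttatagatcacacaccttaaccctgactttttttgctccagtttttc
SLAMF9: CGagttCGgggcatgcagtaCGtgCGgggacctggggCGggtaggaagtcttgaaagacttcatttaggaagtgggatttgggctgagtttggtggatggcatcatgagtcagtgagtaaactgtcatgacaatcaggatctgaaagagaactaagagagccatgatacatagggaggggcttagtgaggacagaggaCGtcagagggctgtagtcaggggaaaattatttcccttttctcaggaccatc
C1orf116: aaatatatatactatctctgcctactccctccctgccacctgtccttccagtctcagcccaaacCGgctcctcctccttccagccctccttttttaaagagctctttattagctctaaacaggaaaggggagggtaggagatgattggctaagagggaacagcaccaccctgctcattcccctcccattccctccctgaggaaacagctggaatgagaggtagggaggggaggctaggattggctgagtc
The CREG1 window holds 14 CpGs and the JCHAIN window holds 0, and H3K27ac peaks covered 100% of both promoters while neither methyl mark reached them. The SLAMF9 window holds 6 CpGs and was covered over 100% by H3K27me3 and over 37.0% by H3K27ac. Its start site lies inside the extent that RefSeq gives the gene, so that the end windows did not include it. The C1orf116 window holds 1 CpG, and no peak of any of the 3 marks was listed there. These percents of the promoter refer to the window of 300 bases that runs on to 50 bases past the start. Promoter sequences were at hand for 79.9% of the genes, under the 80% set as a minimum, so a comparison of CpG content between the gene classes is void and is not given.

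The TKO lists rest on 69008405 fragments for H3K36me2, 41788534 for H3K27me3 and 73164188 for H3K27ac after removal of duplicates, which made up 72%, 82% and 67% of the fragments. Outside the shared blocks there were 92364, 40253 and 49430 peaks with a median width of 373, 380 and 819 bp. Joined peaks covered 2.22%, 0.982% and 2.93% of the bases. The median fold enrichment, the authors' ratio of the fragments at a summit to a genome-wide background, was 3.04, 3.47 and 4.35, so most peaks of the methyl marks stood little above the limit of their list. Fold enrichment is the authors' value and is used only within a list. Of 9 measured plasma cell markers, 7 had an acetylated end with a fold enrichment of 30.6 to 84.9, among them XBP1, IRF4 and PRDM1, while SDC1 and CD38, which define plasma cells at the surface, had no listed end peak. An acetylated end was listed for 3 of 10 B cell markers, 3 of 9 T cell and NK cell markers and 2 of 9 myeloid markers. Over all genes the share with an acetylated end was 59.7%. MS4A1 and PAX5, CD3D and CD3G, and SPI1 and LYZ were without one. BCL6 of the B cell, CD2 of the T cell and CSF3R of the myeloid markers had one, with folds of 32.9, 12.8 and 19.4. That of BCL6 was above the lowest of the 7 plasma cell markers.

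H3K36me2 covered 25% or more of the body of 466 genes, 2.69% of those examined, and H3K27me3 of 154 genes, 0.888%. An acetylated end was listed for 10349 genes, 59.7%. Of the genes, 402 (2.32%) were under H3K36me2 alone, 90 (0.519%) under H3K27me3 alone, 64 (0.369%) under both and 16785 (96.8%) under neither. The 402 genes under H3K36me2 alone had H3K27ac at an end in 374 cases, or 93.0% (interval 90.1 to 95.3). Under H3K27me3 alone it was 41 of 90 genes, 45.6% (35 to 56.4), under both 53 of 64, 82.8% (71.3 to 91.1), and under neither 9881 of 16785, 58.9% (58.1 to 59.6). The intervals treat genes as separate, but the 402 genes fell into 290 runs with gaps of up to 100 kb and the 90 into 59. Neighbours can have the same peak, so the intervals do not serve as a test. The share under H3K36me2 alone was above, and that under H3K27me3 alone below, the share under neither mark. With the limit at 50% of the body the order of the last comparison turned, with 66.7% of the genes under H3K27me3 alone and 59.4% of those under neither acetylated. With the lists cut to the same covered length the genes under both marks, at 9.09%, lay below those under neither, at 16.0%.

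**Figure D1:**
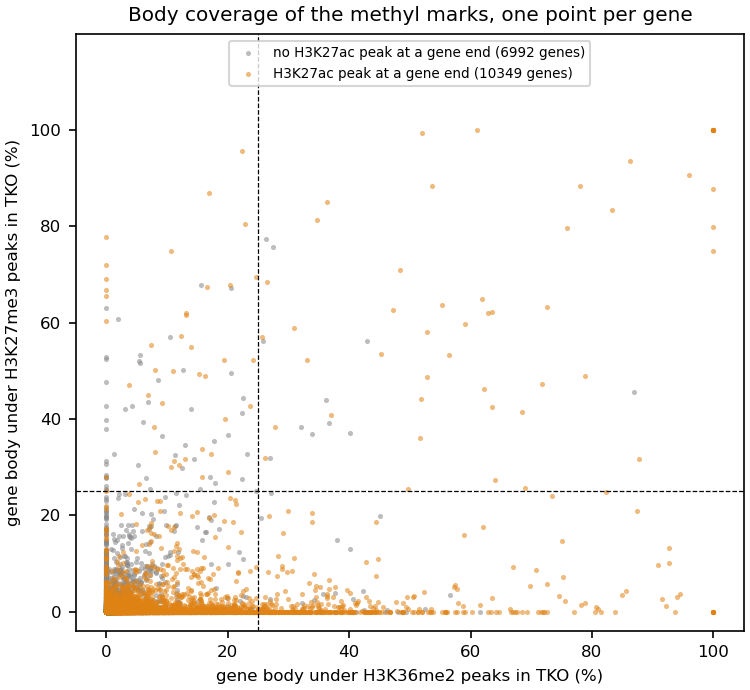
Percent of the body of each of the 17341 genes under H3K36me2 (horizontal) and under H3K27me3 (vertical) in TKO, 1 point per gene, with dashed lines at 25%. Points lie along both axes and few lie far from both, and those with an acetylated end (orange, 10349 genes) line the H3K36me2 axis.

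The H3K27ac end peaks also differed in strength. The strongest end peak of a gene had a median fold enrichment of 32.4 under H3K36me2 alone, 3.30 under H3K27me3 alone, 5.25 under both and 17.0 under neither. H3K27ac lay over 25% or more of the body, not only at the ends, in 1838 genes or 10.6% of all. That held for 252 of the 402 genes under H3K36me2 alone (62.7%), 2 of 90 under H3K27me3 alone, 37 of 64 under both and 1547 of 16785 under neither (9.22%). Acetylated ends of the H3K27me3 class were thus mostly weak, and 8 of the 41 had a strongest peak that also reached the end window of another gene. The strongest end peaks of those 8 genes had a median fold of 30.5, and those of the other 33 of 3.0. Among the 8, HOXC4, HOXC5 and HOXC6 have the same peak. A strongest peak that also reached another gene was seen in 112 of the 374 acetylated genes under H3K36me2 alone (29.9%), against 19.5% here.

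**Figure D2:**
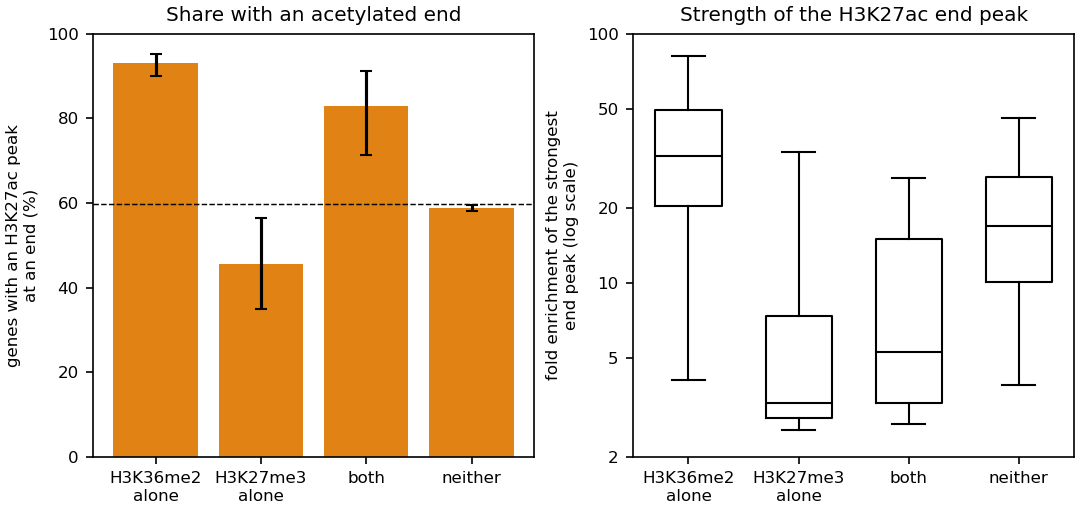
Left, percent of the genes of each class with an H3K27ac peak within 1 kb of a gene end, with exact binomial 95% intervals and a dashed line at 59.7% for all genes. Right, fold enrichment of the strongest end peak on a log scale, with medians of 32.4, 3.30, 5.25 and 17.0, boxes over the middle of each distribution and whiskers from the 5th to the 95th percentile.

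The classes also differed in gene length and in their share of multi-copy families. The median gene length was 24.2 kb under H3K36me2 alone, 11.2 kb under H3K27me3 alone, 12.3 kb under both and 28.8 kb under neither. Multi-copy families, told by their symbols and including olfactory receptors, made up 5.22%, 43.3%, 70.3% and 3.96% of the classes. Reads of near-identical copies cannot be placed with certainty, but how alike the copies of these families are was not measured. Genes within 2 Mb of a shared block made up 7.71%, 32.2%, 18.8% and 3.0%. Without both kinds of genes 351, 29, 13 and 15684 remained, and 93.7%, 24.1%, 84.6% and 60.7% of them had an acetylated end. The part of copy number in these classes was not tested, since the peaks were called without input. Chromosome 1, with 9.08% of the genes, held 115 of the 402 genes under H3K36me2 alone and 28 of the 90 under H3K27me3 alone. Chromosome 12, with 5.06% of the genes, held 18 of the 90, but only 1 of the 61 that lie more than 2 Mb from shared blocks.

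Genes under H3K36me2 alone lay partly close together. The 402 genes fell into 290 runs with gaps of up to 100 kb between members, and 229 of these runs held 1 gene. Genes of other classes can lie within a run. The longest, on chromosome 12, held 10 genes from BLOC1S1 to RAB5B, among them CD63, a tetraspanin of secretory vesicles, and CDK2, a cell cycle kinase. It lies beside a shared block, with PMEL, the neighbour of CDK2, 0.0333 Mb from it, and 8 of the 23 genes of this class on that chromosome lie more than 2 Mb from any block. The next held 7 genes on chromosome 1, from POU2F1 (OCT1, a transcription factor that acts on immunoglobulin promoters) over CD247 and CREG1 to MPC2. The most covered genes of at least 10 kb with an acetylated end were MYL12BP2, DUSP22, IRF2, CREG1 and SPDYE2.

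DUSP22, a dual-specificity phosphatase (chromosome 6, 292487 to 351355), had H3K36me2 over 94.4% of its body, H3K27ac over 85.4% and an end peak of fold 123. IRF2, a transcription factor of the interferon regulatory family (chromosome 4, 184387729 to 184474550), had 94.0%, 85.2% and a fold of 113. CREG1 (chromosome 1, 167541013 to 167553762) had 93.7%, 100% and a fold of 74.1. In these genes most of the body was covered by both marks, with H3K27me3 over 3.57%, 2.93% and 0%. MYL12BP2 had 100% H3K36me2 and an end peak of fold 87.6. SPDYE2, of a multi-copy family of cell cycle regulators, had 92.7% but an end peak of fold 3.45.

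Plasma cell genes were represented by JCHAIN and ELL2 among 18 measured, of which 15 had an acetylated end (83.3%). Over all genes 2.32% were under H3K36me2 alone and 59.7% had an acetylated end. JCHAIN (chromosome 4, 70655541 to 70666508) had H3K36me2 over 58.7% of its body, H3K27ac over 100% and an end peak of fold 67.7. ELL2, a transcription elongation factor needed for the secreted form of antibodies, had 49.8%, 42.7% and a fold of 45.8. Of the other plasma cell genes TNFRSF17 (BCMA) had 14.3% H3K36me2, MZB1, a chaperone of antibody assembly, 18.8%, and XBP1 and IRF4, the regulators of plasma cell fate, 0% and 1.82%. Their end peaks were of like strength, with folds of 84.9, 66.9, 75.2 and 47.9, so a strong acetylated end occurred in this list with and without H3K36me2 over the body.

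The next 4 lists are to be read against 59.7% of all genes with an acetylated end and 2.32% under H3K36me2 alone. Secretory pathway genes had an acetylated end in 36 of 37 cases, and ERN1 (IRE1, the stress sensor that splices XBP1 RNA) was the 1 gene under H3K36me2 alone. ERN1, on chromosome 17, had H3K36me2 over 38.6% and H3K27ac over 69.6% of its body. Myeloma oncogenes and tumour suppressors had 31 of 34, with NFKB2, the non-canonical NF-kappaB subunit, at 36.2% H3K36me2, and the anti-apoptotic genes BCL2L1 and BCL2 at 26.4% and 26.2%, close to the limit. Proteasome genes had 34 of 35, with PSMA5, a subunit of the core ring, at 68.4% and PSMC5, an ATPase of the cap, at 26.6%. Of the 39 H3K27 and H3K36 enzymes and Polycomb subunits 35 had an acetylated end, and EED, the Polycomb subunit that reads H3K27me3, had H3K36me2 over 57.3% of its body. EZH2, its catalytic partner, had 19.3%, and NSD2 had no H3K36me2 or H3K27me3 peak over its body and an end peak of fold 12.8. In these 4 lists no gene was under H3K27me3. With 0.888% of all genes under it, lists of this size cannot be set apart by that count.

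Among lists with nearly all ends acetylated, the number of genes under H3K36me2 was small. All 23 housekeeping genes had an acetylated end, and 0 reached 25% H3K36me2. Of 69 ribosomal protein genes 68 had an acetylated end, and 1, RPL30, was under H3K36me2, at 57.8%. With 2.69% of all genes under H3K36me2, these counts are too small to set the lists apart from the rest. Housekeeping genes had any H3K36me2 peak over the body in 34.8% and ribosomal protein genes in 24.6%, against 44.5% of all genes, and their median end folds were 30 and 22.1 against 17.3. Gene lengths were not matched in these shares. Zinc finger genes of the ZNF family had an acetylated end in 61.3% of 493, and 5 were under H3K36me2 alone, among them ZNF281 at 55.8% and ZNF341 at 55.7%.

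The 28 genes under H3K36me2 alone without an acetylated end included ANKRD55, RHOBTB3, OR2T2 and SPDYE3. ANKRD55 had H3K36me2 over 52.6% and H3K27ac over 36.8% of its body, and RHOBTB3 46.3% and 26.2%. CD247, the zeta chain of the T cell receptor, had 40.1% and 23.8%, and CFTR, the chloride channel of epithelia, 27.0% and 8.91%. H3K27ac was listed within each of these bodies although it was listed at neither end. CD247 lies in the run that holds CREG1. CDH17, an intestinal cadherin and the 1 adhesion gene under H3K36me2, had 43.4% with an acetylated end of fold 51.6.

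The share of genes under H3K36me2 was largest among the strongest end peaks. It was 0.56% of the 6992 genes with no end peak, 5.22% of the 920 with a fold below 5, 1.71% from 5 to 10, 1.91% from 10 to 20, 4.31% from 20 to 40 and 14.3% (12.2 to 16.7) of the 977 genes at 40 and above. Without genes near shared blocks and multi-copy genes the share below 5 was 1.94% and that at 40 and above 13.2%. Any H3K36me2 peak over the body was listed for 25.9% of the genes with no end peak and for 80.0% of those at 40 and above. The median gene length of the bins was 25.9 to 31.6 kb. These shares describe 1 list against another, with no replicate.

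For H3K27me3 the shares were 0.86% with no end peak, 5.87% below a fold of 5, 0.67%, 0.58% and 0.15% in the next bins and 0.41% at 40 and above. Without genes near shared blocks and multi-copy genes the first 2 were 0.39% and 0.97%. Any H3K27me3 peak was listed for 30.8% of the genes with no end peak and 20.8% at 40 and above, with 24.5% for all genes. The highest share in the second bin thus rested mostly on genes of multi-copy families or near shared blocks.

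**Figure D3:**
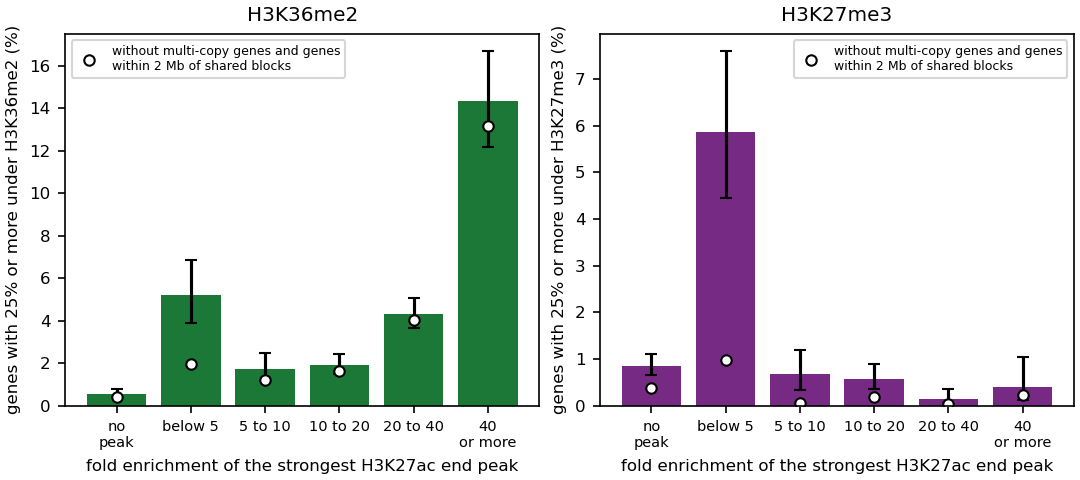
Percent of genes with at least 25% of the body under H3K36me2 (left) and under H3K27me3 (right) by the fold enrichment of the strongest H3K27ac end peak, with exact binomial 95% intervals. White points leave out multi-copy genes and genes within 2 Mb of shared blocks, where H3K36me2 still lies over 13.2% of the genes at 40 and above.

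Along the gene, H3K36me2 and H3K27ac had different shapes over the same genes. For the 232 genes under H3K36me2 alone that are at least 10 kb long and have a strand, bodies were divided into 40 bins of equal length. H3K27ac covered on average 79.1% of the last 500 bp before the start, 45.8% of the first 10 bins and 27.8% of the middle 10. H3K36me2 covered 11.7% of the last 500 bp before the start, with 36.8% a little further upstream, a highest value of 41.3% early in the body, 29.6% in the middle 10 bins and 20.7% in the last 10. The lowest H3K36me2 value around the start thus lay in the bin where H3K27ac was highest. A dip at this place was seen in the 6622 genes under neither methyl mark with an acetylated end, which the limit of 25% did not select, with 7.24% upstream, 1.03% in the last 500 bp before the start and 5.64% in the first part of the body. It was also seen in the 3937 genes under neither mark without an acetylated end, where H3K36me2 had 0.47%, 0.18% and 0.40% and H3K27me3 0.91%, 0.36% and 0.62% in the bin further upstream, the last 500 bp before the start and the second bin of the body. The dip was therefore not particular to H3K36me2 or to acetylated starts. Over promoters, an H3K36me2 peak was listed in 1.08% of the 13848 windows with a sequence and an H3K27ac peak in 55.8%. Of the 320 promoters of genes under H3K36me2 alone, 276 had H3K27ac, 38 had H3K36me2 and 29 had both.

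**Figure D4:**
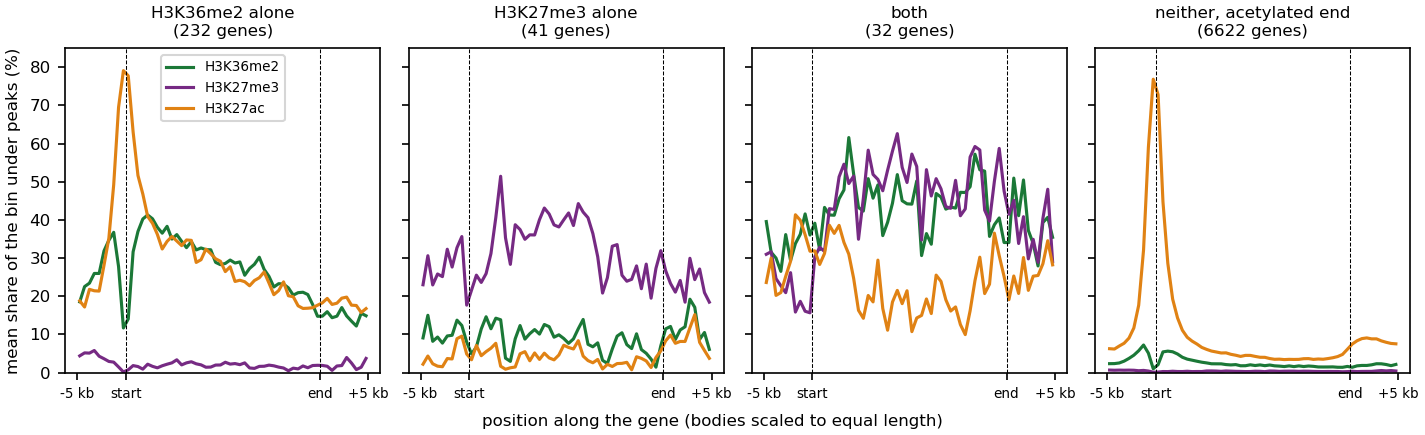
Mean percent of each bin under H3K36me2, H3K27me3 and H3K27ac peaks from 5 kb before the start to 5 kb past the end, with the body scaled to equal length, for genes of at least 10 kb with a known strand. H3K27ac has its summit at the start in the first and last panels, where H3K36me2 is low, and H3K27me3 is low there in its own class too.

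H3K27me3 alone lay over HOXC9, HOXC8, HOXC4, HOXC5 and HOXC6, neighbouring genes of positional identity on chromosome 12 and the longest run of this class. HOXC9 was covered over 66.9% of its body, HOXC8 over 63.0%, HOXC4 over 50.2%, HOXC6 over 33.7% and HOXC5 over 30.4%, with a highest fold of 4.49 to 5.51. The extents of HOXC4, HOXC5 and HOXC6 overlap in the annotation and share 1 end peak of H3K27ac, of fold 17.9, while that of HOXC9 had a fold of 4.20 and HOXC8 had none. All 5 lie within 0.0169 Mb of a shared block, so the cluster is seen here only in part. The other 29 measured HOX genes were under neither mark, and of all 34 HOX genes 8 had any H3K27me3 peak (23.5%, against 24.5% of all genes) and 12 an acetylated end (35.3%, against 59.7%), with HOXA4 at a fold of 25.5.

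Few of the developmental genes listed outside the HOX clusters had an H3K27me3 peak. Of 57 developmental transcription factors 0 were under either methyl mark, where 2.69% of all genes were under H3K36me2 and 0.888% under H3K27me3. That count is too small to set them apart. Of the 57, 3 had any H3K27me3 peak (5.26%, against 24.5% of all genes), and 16 had an acetylated end (28.1%, against 59.7%). SOX2, a stem cell factor, and IRX5 had end folds of 43.5 and 44.1. Gene lengths were not matched in these shares. SOX2 and IRX5 are 2.51 and 3.62 kb long, against a median of 28.4 kb for all genes. Of 53 clustered protocadherin genes, cell surface molecules of neurons, 0 had an acetylated end and 19 had any H3K27me3 peak (35.8%). These genes lie in clusters, and how many of them have the same peak or gene end was not counted. Olfactory receptor genes had an acetylated end in 16 of 203 cases (7.88%, against 59.7% of all genes). Of them 10 were under H3K27me3 alone, against 0.519% of all genes, among them OR6Y1 at 48.9%, though these are members of a large family. A gene without a listed peak is not a measured absence of the mark.

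Adhesion genes under H3K27me3 alone were ITGA7, a laminin receptor chain at 57.3%, and ITGA5, the fibronectin receptor chain at 33.1%, on chromosome 12 and within 0.284 and 0.395 Mb of a shared block. ITGA5 stands in a second run of 5 genes with NFE2, GTSF1, NCKAP1L and PDE1B. ITGA7 had an end peak of fold 33.6, which also reached the end window of BLOC1S1, and ITGA5 one of 3.75. Of all 67 adhesion genes 29 had an acetylated end (43.3%, against 59.7% of all genes) and 28 any H3K27me3 peak (41.8%, against 24.5%). Gene lengths were not matched. ITGA4, the chain by which lymphocytes bind VCAM1, had no H3K27me3 and an end fold of 45.0.

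The most covered genes of this class with an acetylated end were SLAMF9, SLAMF8, TBC1D3D, PMEL and SYPL2. SLAMF9 and SLAMF8 are neighbours on chromosome 1, 0.016 and 0.163 Mb from a shared block, with H3K27me3 over 95.6% and 86.9% and end folds of 2.85 and 2.70. SYPL2, a synaptophysin-like gene of muscle (chromosome 1, 109466546 to 109482134), had 69.0% and no H3K36me2 or H3K27ac over the body. Its end peak of fold 49.1 lay off the body in a window shared with ATXN7L2. In WT no end peak of SYPL2 was listed. Those in D1240A and F1295A had folds of 4.17 and 2.70, below the median folds of their lists, 4.50 and 4.29. PMEL, the matrix protein of melanosomes, had 69.5%, and its end peak of fold 30.6 was shared with CDK2. The strong peaks of SYPL2 and PMEL therefore belong as much to a neighbour.

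Of the 49 genes of this class without an acetylated end, MYBPHL, a myosin-binding gene of muscle, had 67.8%, C1orf116 60.8% and TNNT2, cardiac troponin T, 25.6%. The highest H3K27me3 fold was 4.70 in MYBPHL, 4.29 in C1orf116 and 3.47 in TNNT2. GOLGA6D, TBC1D3C and NPIPB15, at 67.2%, 56.9% and 53.2%, belong to multi-copy families. TNNT2 lies 39.4 Mb from a shared block and MYBPHL 10.7 Mb. In the profile of the 41 genes with a strand and at least 10 kb, H3K27me3 averaged 17.7% in the last 500 bp before the start and 40.9% in the middle of the body, where the class rule asks for coverage. The bin just upstream of those 500 bp held 35.6%, and an H3K27me3 peak was listed over 17 of the 64 promoters of the class (26.6%), against 0.563% of all promoters. An H3K27ac peak was listed over 7 of these 64 promoters (10.9%), against 55.8% of all promoters. An acetylated end in this class is thus not to be read as an acetylated promoter. In 17 of the 41 acetylated genes the strongest end peak lay off the body.

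The 64 genes under both methyl marks were mostly copies of a few families. Of their 50 promoters with a sequence, 23 had an H3K27ac peak (46%, against 55.8% of all promoters). Their longest runs were PRR20A to PRR20E and SPDYE8, SPDYE11, SPDYE9 and SPDYE10. SPDYE9, SPDYE11 and SPDYE8 on chromosome 7 were covered over 100% by H3K36me2 and by H3K27me3, with end folds of 16.1, 15.6 and 16.7. NPIPA1 on chromosome 16 had 96.0% and 90.6%, and NPIPB12 100% and 87.7%. KIR2DL1, an inhibitory receptor of NK cells from a clustered family, had 43.0% and 56.1% and no end peak. TTC34 on chromosome 1 had 36.2% and 43.9% and a highest H3K27me3 fold of 76.8, far above the list's median of 3.47. ZNF385A, a zinc finger gene, had 49.6% and 25.5%, within 0.369 Mb of a shared block.

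Among genes under neither methyl mark the strongest end peaks were those of CLPTM1L, RHOU, ASPRV1, RPIA and TSPOAP1, at folds of 128, 107, 101, 96.5 and 95.1. CLPTM1L, a membrane protein gene on chromosome 5, had H3K27ac over 83.2% of its body, and its H3K36me2 at 21.6% came close to the limit. Its highest fold was 78.1 for H3K36me2 and 62.9 for H3K27me3, so that peaks of all 3 lists stood far above their list's median at 1 gene. The peaks were called without input, and the part of copy number or read placement at this gene was not tested. These folds therefore do not show that the 3 marks occur together there. RHOU encodes a small GTPase with 6.03% H3K36me2, and RPIA, an enzyme of the pentose phosphate pathway, had 22.9%. The end peaks of ASPRV1 and TSPOAP1 were shared with PCBP1 and SUPT4H1.

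Genes close to the limit show how fine it is. For H3K36me2, ATXN7L3B lay just below 25% and APOBEC4 and CACYBP just above. For H3K27me3, SPDYE6 and LOC124904583 lay just below, and LPA and SLC26A9 just above. ATXN7L3B and CACYBP both had an acetylated end, with folds of 24.6 and 60.2, though they fell into different classes.

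As pairs over the whole of chromosomes 1 to 22 outside the blocks, H3K36me2 and H3K27ac shared 21.7 Mb, which is 35.2% of the H3K36me2 length and 26.7% of the H3K27ac length. H3K36me2 and H3K27me3 shared 11.2 Mb, 18.1% of the H3K36me2 length and 41.0% of the H3K27me3 length. H3K27me3 and H3K27ac shared 5.33 Mb, 19.5% and 6.55%. More than 2 Mb from shared blocks the shares were 34.3% and 25%, 14.3% and 37.7%, and 15.8% and 4.39%. In each pair the shared percent was above the percent of all bases that the other mark covered, with no replicate to give this an error. Whether 2 marks lay on the same nucleosome, allele or cell cannot be told apart in pooled cells, nor can fewer marked cells and less mark per cell.

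Strong and weak H3K27ac peaks had different partners. Of all H3K27ac peaks 40.4% overlapped an H3K36me2 peak and 13.9% an H3K27me3 peak. In 4 groups of equal size from the lowest to the highest fold, the share over H3K36me2 was 35.9%, 38.1%, 33.7% and 54.0%, and that over H3K27me3 18.5%, 21.8%, 10.7% and 4.61%. Peaks of the highest group were wider, with a median of 2979 bp against 291 bp in the lowest, which alone allows more overlap. The share over H3K27me3 was lowest in that widest group. Of the overlaps with H3K27me3, 5894 of 6871 also overlapped H3K36me2. By position, 20% of the H3K27ac length, 2.71% of the H3K36me2 length and 2.49% of the H3K27me3 length lay in gene end windows, which make up 2.41% of the bases. The rest of gene bodies held 48.0%, 48.7% and 29.4%, against 41.6% of the bases, and the space outside genes held 32.0%, 48.6% and 68.1%, against 56.0%.

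The TKO classes were then read in the other conditions, which the class rule did not use. In WT, D1240A and F1295A cells the share of all genes under H3K36me2 was 0.709%, 1.19% and 2.15%, under H3K27me3 1.01%, 0.744% and 0.75%, and with an acetylated end 59.4%, 60.6% and 60.1%. Of the 402 genes under H3K36me2 alone in TKO, 28 were of the same class in WT, 125 in D1240A and 214 in F1295A. Their median H3K36me2 was 36.4% in TKO, against 3.71% in WT, 17.8% in D1240A and 26.4% in F1295A. Since the genes were chosen for a high TKO value, lower values elsewhere follow in part from that choice. The acetylated ends of these genes numbered 374, 371, 373 and 376, so nearly as many had H3K27ac listed at an end in each condition.

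In the order TKO, WT, D1240A and F1295A, CREG1 had H3K36me2 over 93.7%, 2.05%, 49% and 63.1%. ERN1 had 38.6%, 0.58%, 14.1% and 27.4%. PSMA5 had 68.4%, 27.2%, 43.4% and 60%. In each of these genes the share under H3K36me2 peaks fell in the order TKO, F1295A, D1240A and WT. An acetylated end was listed for them in every condition. These shares, too, are not amounts of the mark. JCHAIN had 58.7%, 2.91%, 19.7% and 17.6%, and DUSP22 94.4%, 69.5%, 92.3% and 96.9%, where the highest value was that of F1295A.

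Of the 90 genes under H3K27me3 alone, 54, 43 and 34 were of the same class in WT, D1240A and F1295A, with a median H3K27me3 of 42.7% in TKO and 44.2%, 31.2% and 34.5% there. Of the 64 genes under both, 52, 47 and 52 were of the same class. Of the TKO genes with 25% H3K27me3, 83.1% were also called in WT, 70.8% in D1240A and 73.4% in F1295A. For H3K36me2 these shares were 19.3%, 38.8% and 58.6%, and for acetylated ends 96.9%, 98.5% and 98.1%. Seen from the other list, 73.2%, 87.4% and 73.4% of its H3K36me2 genes and 72.7%, 84.5% and 86.9% of its H3K27me3 genes were also TKO genes. The WT and D1240A lists rest on 62550152 and 64588375 H3K36me2 fragments, fewer than in TKO. The D1240A and F1295A lists rest on 33219802 and 31097592 H3K27me3 fragments, also fewer than in TKO. The part of depth in these shares was not tested.

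In the same order of conditions, ITGA5 had H3K27me3 over 33.1%, 42.0%, 35.1% and 41.1%, while its H3K36me2 was 8.01%, 2.13%, 16.7% and 46.5%. SLAMF9 had H3K27me3 over 95.6%, 95.5%, 75% and 78.5% and H3K36me2 over 22.3%, 45.2%, 42.5% and 72.2%. Both genes were therefore under both marks in F1295A, and SLAMF9 in all but TKO. C1orf116 had H3K27me3 over 60.8%, 38.2%, 35% and 36.7% with H3K36me2 of at most 4.36%. SPDYE9 was covered over 100% by both marks in all 4 conditions.

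**Figure D5:**
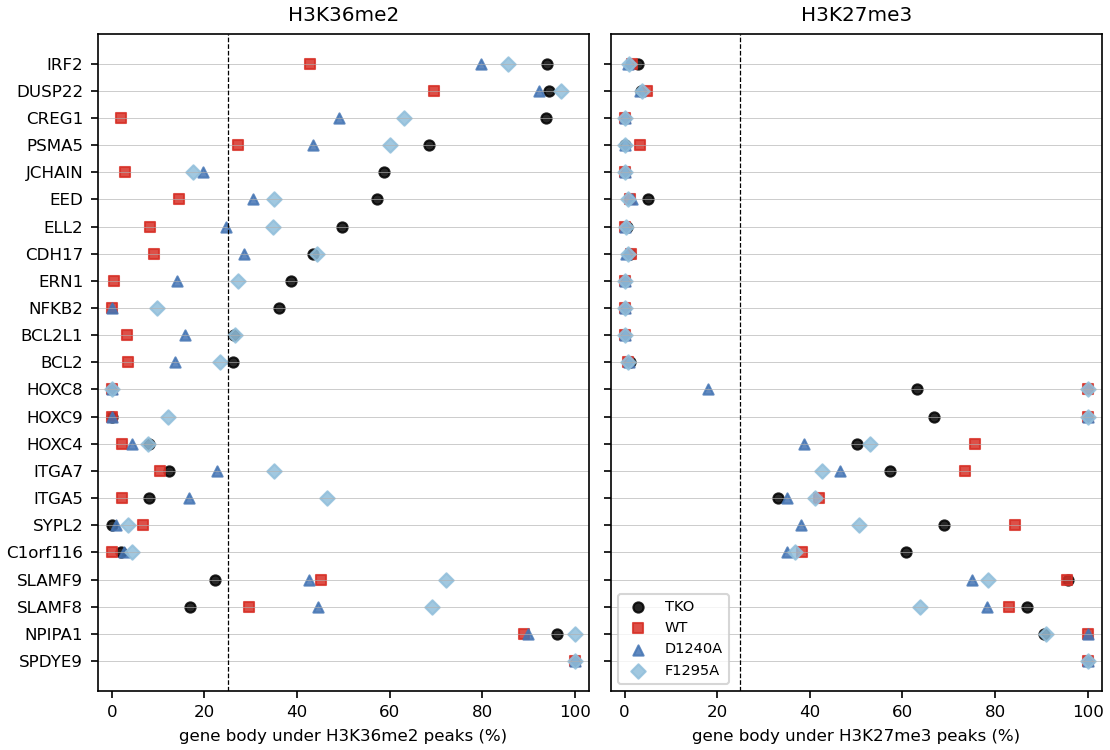
Percent of the body under H3K36me2 (left) and H3K27me3 (right) for 23 named genes in TKO, WT, D1240A and F1295A cells, 1 pooled list each, with a dashed line at 25%. H3K36me2 in TKO (black) is at or near the highest value in most of the upper genes, and SPDYE9 is at 100% for both marks in every list.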

How the data were processed

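Per the labels' protocols, cells were fixed with 0.8% formaldehyde and their chromatin was sonicated, immunoprecipitated and tagmented. The submitters' processing notes list Bowtie2 2.4.5 and MACS2 2.2.7.1, beside Trimmomatic 0.36 and FastQC 0.11.4, with GRCh38 as the genome. Per the file headers, the authors called each of the 12 lists on 2 replicates with a q-value limit of 0.05, no local background and no control. The deposited pileup, a signal, counts fragments over a summit without scaling for depth. The deposited fold enrichment is a ratio to a genome-wide background, from which the authors also computed a −log10 q-value. The 4 input samples were not analysed here.

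Gene extents and promoters came from RefSeq tables of GRCh38 patch 14. After 177 entries with coordinates of separate scaffolds or repeats were left out, the 94 shared blocks (93.2 Mb), body coverage, end peaks and overlaps were computed with pandas 2.3.3, numpy 2.4.6 and SciPy 1.17.1 in Python 3.11.15, drawn with matplotlib 3.10.9 and tested on simulated data. Named genes were the 5 most covered genes of at least 10 kb per class (for neither mark, the strongest end peaks), up to 4 members of each gene list and class, NSD2 and 2 genes on either side of each limit. The classes and the lists, 12 of chosen genes and 5 families told by symbol, were chosen with earlier results of these data known, and the multi-copy families after values were seen. The 13 alternatives are given in the closing section. Single values of some genes that the naming rule gives are not reported here.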

Additional observations from a re-analysis of the deposited data

How the results depend on the processing

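Values are in the order genes under H3K36me2 alone (402), H3K27me3 alone (90) and both (64), with acetylated shares in the same order and then for neither (93.0%, 45.6%, 82.8%, 58.9%). In all 13 settings the acetylated share was higher under H3K36me2 alone than under neither, and that under H3K27me3 alone was below neither except at 50% of the body. Without merging, 234 genes were under H3K36me2 alone. Merging within 3 kb gave 966, 144 and 131 genes and shares of 32.6%, 71.0% and 57.8% for the last 3. At 50% of the body there were 101, 45 and 29 genes with 96.0%, 66.7% and 100%, so both marks stood above H3K36me2 alone. At 10% there were 1300, 193 and 180, with 28.0%, 68.9% and 57.2% for the last 3. End windows of 2.5 kb gave 58.9%, 92.2% and 62.1% for the last 3, and the gene start alone 89.4%, 25% and 68.0% for the first 3. A −log10 q of at least 5 gave 113, 46 and 33 genes, with 30.4% for H3K27me3 alone and 57.6% for neither. With the lists cut to their highest peaks, 23.3 Mb in each, there were 108 genes under H3K36me2 alone, 2808 acetylated genes in place of 10349, and shares of 66.7%, 4.55%, 9.09% and 16.0%, where both lay below neither. With the shared blocks kept, 268 genes were under both, of which 95.1% were acetylated, just above the 94.8% of H3K36me2 alone. Genes of at least 10 kb gave 54 under H3K27me3 alone, 40 under both and 61.0% for neither.

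The share of the H3K36me2 length under H3K27me3, 18.1%, was 18.6% without merging, 17.0% with merging within 3 kb, 26.9% at a −log10 q of at least 5, 31.7% at equal covered length and 49.7% with the blocks kept. Of 3 settings chosen after seeing the data, leaving out genes near shared blocks and multi-copy genes gave 29 and 13 genes under H3K27me3 alone and both, shares of 24.1% and 60.7% for H3K27me3 alone and neither, and an overlap of 14.3%. Leaving out chromosome 1 gave an overlap of 19.0%, and leaving out chromosome 12 gave 379, 72 and 62 genes, 41.7% for H3K27me3 alone and an overlap of 18.2%. The causes of the other changes were not tested. No paired analysis was possible because the authors pooled the replicates in each list, and for the same reason no replicate could be left out. Depth and the missing input limit all 3 lists, and their part was not tested.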
